A study of Mus musculus with 12 samples.

Results

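The 10 genes described here are targets of the tumour suppressor p53 or genes that halt cell growth: Cdkn1a, Btg2, Gadd45a, Ccng1, Plk2, Plk3, Mdm2, Phlda3, Bbc3 and Trp53inp1. They were taken from a fixed list, and all 10 were measured, each by 1 row of the array table, among 14860 genes with a row of 1 gene symbol. All groups used 1 mouse podocyte line (podocytes are the epithelial cells on the outer face of the glomerular capillaries), conditionally immortalized. It carries the thermosensitive tsA58 T-antigen, was propagated at 33 °C with 10 units per ml of γ-interferon and differentiated at 37 °C without it, and was used on day 14. There were 4 groups of 3 arrays each. Control cells stood in the same hood and incubator without flow, at a harvest time that the labels leave out. The other 3 groups were put under fluid flow for 2 h, at a shear stress of 2 dynes/cm2 and 75 ml per minute. They were harvested at once (End), after 2 h of recovery (Post-2hr) or after 24 h of recovery (Post-24hr). Whether a group's 3 samples came from separate cultures is not in the labels, so p-values reflect only how these samples vary, which may be technical.

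The p53 protein is a transcription factor that is held low by Mdm2, a ubiquitin ligase that p53 itself induces, and is stabilised by DNA damage and other stresses. Its targets stop the cell cycle, repair DNA, adjust metabolism or start apoptosis. Some of them are also switched on without p53: Plk2 was first found as a serum-inducible kinase, Plk3 as a kinase inducible by fibroblast growth factor, and Btg2 as a gene induced by growth factors and phorbol ester. The large T-antigen of SV40 binds p53, and its tsA58 form is unstable at the higher of the 2 temperatures, which limits this line as a model of p53 signalling. Trp53, the gene of p53, was not analysed here.

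Values are log2 expression as normalized by the authors, so a difference of 1 is a doubling, and array medians lay between 6.928 and 7.115. No detection calls were used here, but each of the 10 rows was above the array median in all 12 arrays. On the first principal component the 4 arrays numbered replicate 1 stood away from the 8 others. This component held 42.41% of the variance (from −53.24 to −26.73 for replicate 1 and from 3.00 to 34.50 for replicates 2 and 3). The labels give no batch. The larger differences are therefore also given from a fit in which replicate 1 is set apart by a term of its own (the set-apart fit) or separately for replicate 1 and for the remaining arrays. Of 12 podocyte markers, 9 were measured. Wt1, Podxl, Cd2ap, Actn4, Nes and Vegfa were above the array median in all 12 arrays, and Nphs1, which encodes nephrin of the slit diaphragm, Tcf21 and Ptpro were below it in all 12. All 6 endothelial markers were below it in all 12 arrays. Of 6 macrophage and leukocyte markers, Ptprc, Adgre1 and Itgam were below it in all 12, Csf1r in 3, and Cd68 and Cd14 in none. Of 6 mesangial and fibroblast markers, Acta2, Pdgfrb and Col1a1 were above it in all 12 arrays, as were Aqp1 and Aqp2 of 6 tubular markers.

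Of the 10 genes, the polo-like kinase genes Plk2 and Plk3 were higher in every array of Post-2hr and Post-24hr than in any Control array. The antiproliferative gene Btg2 was higher in every array of End and Post-24hr than in any Control array. Cdkn1a, Mdm2, Ccng1 and Phlda3 differed from the controls by at most 0.13 in either direction at any harvest. Mdm2 at Post-2hr was at −0.23 in replicates 2 and 3. It was at −0.41 without Post-2hr replicate 1, a fit that still holds replicate 1 of Control. Gadd45a differed by −0.44 at End, and Bbc3 by −0.43 and Trp53inp1 by −0.58 at Post-2hr. None of the 10 passed the threshold of 0.05 in any comparison after adjustment over all 23332 rows (limma, moderated test, Benjamini-Hochberg). At that threshold 0% of all rows passed at End, 0.0171% at Post-2hr and 0% at Post-24hr. At an unadjusted p under 0.05 there was 1 of the 10 genes at End (Btg2), against 3.62% of all rows. There were 3 at Post-2hr (Plk2 and Plk3 higher, Bbc3 lower), against 5.64%, and 3 at Post-24hr (Plk2, Plk3 and Btg2, all higher), against 2.4%. In the set-apart fit Plk2 passed at Post-2hr, where 0.154% of all rows did, and no other gene of the 10 passed at any harvest. The median change of the 10 genes was 0.01 at End, 0.01 at Post-2hr and 0.12 at Post-24hr, beside 0.02, −0.01 and 0.00 for all genes.

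**Figure D1:**
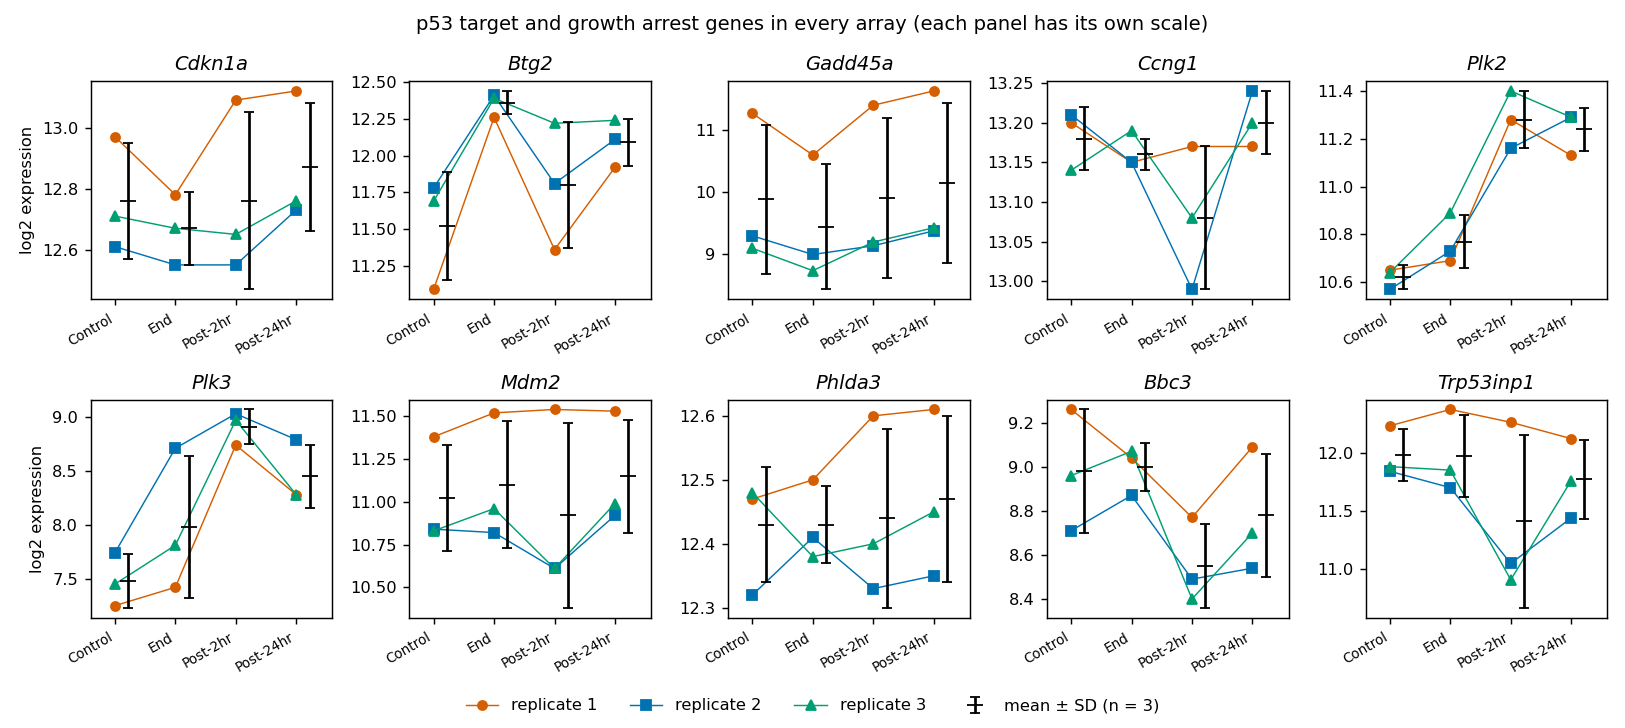
Log2 expression (vertical axes, a scale for each panel) of the 10 genes in the 12 arrays by group (horizontal axes); coloured points are arrays, thin lines join arrays of the same replicate number, and black bars are the mean ± SD of 3 arrays. Plk2 and Plk3 are above all Control arrays at Post-2hr and Post-24hr, and the replicate 1 arrays of Gadd45a (10.59 to 11.62) stand above the others (8.73 to 9.42).

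Plk2 encodes a polo-like kinase that acts in the cell cycle and, in neurons, at synapses. Its log2 expression was 10.65, 10.57 and 10.64 in Control, 10.69, 10.73 and 10.89 at End, 11.28, 11.16 and 11.40 at Post-2hr, and 11.13, 11.29 and 11.29 at Post-24hr. Each of the 3 sheared groups lay above Control without overlap, End by a small margin, and Post-2hr and Post-24hr overlapped each other. Post-2hr averaged 11.28 ± 0.12 and Control 10.62 ± 0.05 (SD, n = 3 each), a difference of 0.66 ± 0.10 (SE) or 1.58-fold (limma adjusted p = 0.0939; set-apart adjusted p = 0.0328). Within the 3 replicate numbers the difference was 0.63, 0.59 and 0.77. The set-apart call of Plk2 rests on the full set of arrays: in 12 further fits that each left out 1 array it was kept without Post-24hr replicate 1 and lost without any of the other 11, with adjusted p from 0.0459 to 0.166. At Post-24hr the difference was 0.62 ± 0.10 or 1.54-fold (adjusted p = 0.775; set-apart adjusted p = 0.368), and at End 0.15 ± 0.10 (adjusted p = 1). For Plk2 the test of any difference among the 4 groups gave the smallest p of the 10 genes, 6.21e-05 (moderated F test, adjusted p = 0.161; set-apart adjusted p = 0.0557).

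Plk3, a second polo-like kinase with roles in stress responses and cell cycle entry, had the largest difference of the 10 genes. Its log2 expression was 7.25, 7.74 and 7.45 in Control, 7.42, 8.71 and 7.81 at End, 8.74, 9.03 and 8.97 at Post-2hr, and 8.28, 8.79 and 8.28 at Post-24hr. All Post-2hr and Post-24hr arrays were above all Control arrays, and the End arrays were spread over both. Post-2hr averaged 8.91 ± 0.16 and Control 7.48 ± 0.25 (SD, n = 3 each), a difference of 1.43 ± 0.29 (SE) or 2.69-fold (limma adjusted p = 0.379; set-apart adjusted p = 0.08). The difference was 1.48 in replicate 1 and 1.40 in replicates 2 and 3. At Post-24hr it was 0.97 ± 0.29 or 1.95-fold (adjusted p = 1). At End it was 0.50 ± 0.29, and within the replicate numbers 0.16, 0.97 and 0.36, the largest in replicate 2. It was 0.13 without End replicate 2, a fit that still holds replicate 2 of Control.

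Btg2 encodes an antiproliferative protein that binds the CCR4-NOT deadenylase complex. Its log2 expression was 11.09, 11.78 and 11.69 in Control, 12.26, 12.41 and 12.39 at End, 11.36, 11.81 and 12.22 at Post-2hr, and 11.92, 12.11 and 12.24 at Post-24hr. End and Post-24hr lay above Control without overlap, and Post-2hr overlapped it. End averaged 12.36 ± 0.08 and Control 11.52 ± 0.37 (SD, n = 3 each), a difference of 0.84 ± 0.23 (SE) or 1.79-fold (limma adjusted p = 1; set-apart adjusted p = 0.238). The difference was 1.17 in replicate 1 and 0.67 in replicates 2 and 3. At Post-2hr it was 0.28 ± 0.23, and 0.28 in replicates 2 and 3. At Post-24hr it was 0.57 ± 0.23 or 1.48-fold (adjusted p = 1), and 0.44 in replicates 2 and 3. Without Control replicate 1 these differences were 0.06 and 0.36, in fits that still hold replicate 1 of the sheared groups. Btg2 thus had its largest mean difference at End and Plk3 its largest at Post-2hr, while those of Plk2 at Post-2hr and Post-24hr did not differ beyond their error. The counts of genes without overlap to Control were 2 of 10 higher at End (Btg2 and Plk2), 2 at Post-2hr (Plk2 and Plk3) and 3 at Post-24hr, against 4.69%, 4.08% and 2.7% of all rows, and none of the 10 was lower without overlap, as 2.94%, 5.01% and 2.91% of all rows were.

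**Figure D2:**
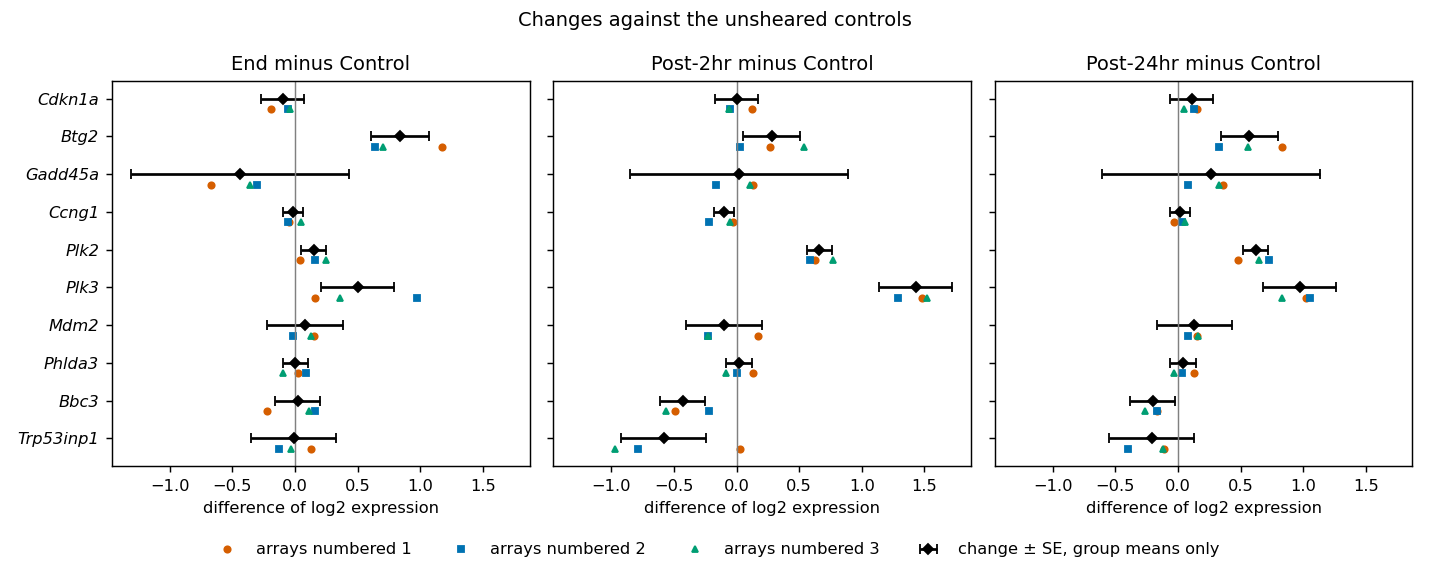
Differences of log2 expression from Control (horizontal axes) for the 10 genes (vertical axis) at the 3 harvests; diamonds with bars are the difference of group means ± SE, and coloured points the differences between arrays of the same replicate number. All 3 points of Plk2 (0.59 to 0.77) and Plk3 (1.29 to 1.52) lie right of 0 at Post-2hr, while the replicate 1 point of Trp53inp1 (0.03) stands apart from the other two (−0.97 and −0.79).

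The start-site windows of these 3 genes are shown because these genes were higher than all Control arrays at 2 or more harvests, with a window of Cdkn1a, the textbook p53 target, beside them. Each window runs from 250 bases before to 50 bases after a RefSeq transcript start (build GRCm38.p6, written along the gene's strand): Plk2 at chr13:110394794-110395093 on the plus strand, Plk3 at chr4:117133914-117134213 on the minus strand, Btg2 at chr1:134079106-134079405 on the minus strand and the first of 2 windows of Cdkn1a at chr17:29090729-29091028 on the plus strand. Capitals mark exact matches, on either strand, to the cAMP response element TGACGTCA or its core TGACG in the first 3 windows, and to the 10-letter unit of the p53 response element in the last.
Plk2: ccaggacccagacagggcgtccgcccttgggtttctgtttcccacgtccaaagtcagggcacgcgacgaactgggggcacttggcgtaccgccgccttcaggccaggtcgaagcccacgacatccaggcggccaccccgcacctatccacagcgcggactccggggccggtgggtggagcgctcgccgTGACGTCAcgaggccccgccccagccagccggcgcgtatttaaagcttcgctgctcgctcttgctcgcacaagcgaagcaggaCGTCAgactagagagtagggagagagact
Plk3: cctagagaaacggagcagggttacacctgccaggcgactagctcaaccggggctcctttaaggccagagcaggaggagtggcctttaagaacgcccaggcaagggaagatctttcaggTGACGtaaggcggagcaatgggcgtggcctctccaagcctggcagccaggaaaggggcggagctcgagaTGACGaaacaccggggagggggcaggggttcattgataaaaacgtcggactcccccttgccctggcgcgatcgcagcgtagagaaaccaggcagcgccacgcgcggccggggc
Btg2: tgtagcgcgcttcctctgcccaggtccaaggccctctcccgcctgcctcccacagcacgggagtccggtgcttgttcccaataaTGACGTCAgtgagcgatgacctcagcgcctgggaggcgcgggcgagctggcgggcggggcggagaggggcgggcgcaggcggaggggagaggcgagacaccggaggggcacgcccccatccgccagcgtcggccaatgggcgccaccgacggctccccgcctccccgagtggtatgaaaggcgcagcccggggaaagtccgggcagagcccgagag
Cdkn1a: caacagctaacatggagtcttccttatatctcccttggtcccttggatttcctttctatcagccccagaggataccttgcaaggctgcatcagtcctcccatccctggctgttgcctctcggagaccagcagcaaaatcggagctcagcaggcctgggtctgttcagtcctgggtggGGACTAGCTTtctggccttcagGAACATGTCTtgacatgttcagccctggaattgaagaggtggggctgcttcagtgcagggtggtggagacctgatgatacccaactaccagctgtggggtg

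The full cAMP response element was in the windows of Plk2, beginning at base −62 from the start site, and Btg2, at base −166, and in none of the other members' windows. It was in 1.79% of all 32851 windows of this length. The 9 members that have a window had 12 in all. The core TGACG, which the full element contains on both strands, was in 5 of these 12 windows and in 20.8% of all windows. The 5 belonged to Plk2, Plk3, Mdm2, Btg2 and Bbc3. The p53 unit was in 4 of the 12 windows (1 each of Cdkn1a, Mdm2, Ccng1 and Gadd45a), and in 8.36% of all windows. In the printed Cdkn1a window it matched at bases −73 and −51, and the second window of Cdkn1a held no match. No match to the p53 unit was found in the windows of Plk2, Plk3 or Btg2, and none of the members' windows matched the AP-1 site TGANTCA (7.81% of all windows) or the CArG box bound by serum response factor (1.63%). The FOXO site TGTTTAC was in a window of Mdm2 and of Bbc3 (3.65% of all windows). These motifs were chosen after the changes were known, and a match in letters shows no binding.

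Among the cell cycle inhibitors, Cdkn1a, which encodes the cyclin-dependent kinase inhibitor p21, did not move away from its controls beyond their spread. Its log2 expression was 12.97, 12.61 and 12.71 in Control, 12.78, 12.55 and 12.67 at End, 13.09, 12.55 and 12.65 at Post-2hr, and 13.12, 12.73 and 12.76 at Post-24hr. The groups overlapped at every harvest, and replicate 1 was the highest array of each. The difference from Control was −0.10 ± 0.17 at End, 0.00 ± 0.17 at Post-2hr and 0.11 ± 0.17 at Post-24hr (SE). The 95% interval of Cdkn1a at Post-2hr ran from −0.37 to 0.37, and from −0.18 to 0.19 in the set-apart fit. Ccng1, a cyclin G that recruits a phosphatase to Mdm2, varied by 0.26 over all 12 arrays, the smallest range of the 10 genes. It averaged 13.16 ± 0.02 at End, 13.08 ± 0.09 at Post-2hr and 13.20 ± 0.04 at Post-24hr, and 13.18 ± 0.04 in Control (SD, n = 3 each).

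Gadd45a, which encodes a stress protein that acts on the p38 and JNK kinase pathways, varied far more between replicate numbers than between harvests. Its log2 expression was 11.26, 9.29 and 9.09 in Control, 10.59, 8.99 and 8.73 at End, 11.39, 9.13 and 9.19 at Post-2hr, and 11.62, 9.37 and 9.42 at Post-24hr. The replicate 1 array was the highest of every group. With group means alone, the difference at End was −0.44 ± 0.87 (SE), and it turned to 0.25 without Control replicate 1. Within replicate numbers, the End arrays were below their Control counterparts by values of −0.67, −0.30 and −0.36 (set-apart limma adjusted p = 0.464, unadjusted p = 0.00534), and Post-24hr was at 0.36, 0.08 and 0.33 relative to Control. None of these passed the test.

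Of the genes that feed back on p53 or on survival signals, Mdm2 and Phlda3 stayed near their controls. Mdm2 was 11.38, 10.84 and 10.83 in Control, 11.52, 10.82 and 10.96 at End, 11.54, 10.61 and 10.61 at Post-2hr, and 11.53, 10.92 and 10.99 at Post-24hr. All groups overlapped, with replicate 1 the highest array of each. Its difference at Post-2hr was −0.10 ± 0.30 (SE) over all arrays, 0.17 in replicate 1 and −0.23 in replicates 2 and 3. Phlda3, which encodes a pleckstrin homology protein that represses Akt, ranged over 0.28 in the 12 arrays. Its differences from Control were 0.00 at End, 0.02 at Post-2hr and 0.04 at Post-24hr, each ± 0.10 (SE), and the widest 95% bounds were −0.23 and 0.27.

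The genes with roles in cell death and autophagy had lower means at Post-2hr. Bbc3 encodes PUMA, a BH3-only protein that starts apoptosis at mitochondria. It was 9.26, 8.71 and 8.96 in Control, 9.04, 8.87 and 9.07 at End, 8.77, 8.49 and 8.40 at Post-2hr, and 9.09, 8.54 and 8.70 at Post-24hr. Post-2hr lay below End without overlap and overlapped Control by 1 array. Post-2hr averaged 8.55 ± 0.19 and Control 8.98 ± 0.28 (SD, n = 3 each), a difference of −0.43 ± 0.18 (SE), with an unadjusted p = 0.0367 in the limma fit (adjusted p = 0.843; set-apart adjusted p = 0.183). All 3 replicate numbers had the lower value at Post-2hr, by −0.49, −0.22 and −0.56, and replicates 2 and 3 together by −0.39. The difference was −0.28 without Control replicate 1, a fit that still holds replicate 1 of Post-2hr. At Post-24hr the difference was −0.20 ± 0.18.

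Trp53inp1, which encodes a protein that promotes p53 activity and autophagy, was 12.23, 11.84 and 11.88 in Control, 12.37, 11.70 and 11.85 at End, 12.26, 11.05 and 10.91 at Post-2hr, and 12.12, 11.44 and 11.76 at Post-24hr. The replicate 2 and 3 arrays of Post-2hr were the lowest of the 12, and replicate 1 of Post-2hr, at 12.26, was above all Control arrays. The difference at Post-2hr was −0.58 ± 0.34 (SE; limma adjusted p = 0.941; set-apart adjusted p = 0.242), with 0.03 in replicate 1 and −0.88 in replicates 2 and 3. It was −0.33 without Post-2hr replicate 3. Whether the change differs between these sets of arrays was not tested.

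Between successive harvests none of the 10 genes passed (limma, adjusted over all rows). From End to Post-2hr 0.0257% of all rows passed, and 4 of the 10 genes had an unadjusted p under 0.05, against 6.24% of all rows. Plk2 was higher at Post-2hr than at End by 0.51 ± 0.10 (SE; adjusted p = 0.211; set-apart adjusted p = 0.0721) and Plk3 by 0.93 ± 0.29 (adjusted p = 0.582). Btg2 differed by −0.56 ± 0.23 (adjusted p = 0.74) and Bbc3 by −0.44 ± 0.18 (adjusted p = 0.733). All 4 had groups that did not overlap, as did 4.1% of all rows with higher and 7.86% with lower values. From Post-2hr to Post-24hr, 0% of all rows passed and 0 of the 10 had an unadjusted p under 0.05, against 5.71% of all rows. Plk2 differed there by −0.04 ± 0.10 and Plk3 by −0.46 ± 0.29.

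Relatives of the 10 genes were measured family by family. Of the other polo-like kinase genes, Plk1 encodes the mitotic kinase and Plk4 a kinase that drives centriole duplication. Differences from Control at Post-2hr were −0.06 ± 0.85 (SE) for Plk1, −0.02 ± 0.25 for Plk4 and 0.16 ± 0.11 for Plk5. At Post-24hr they were 0.52 ± 0.85, 0.52 ± 0.25 and −0.05 ± 0.11 in the same order, each with overlap. In replicate 1 Plk1 was then at −0.44 and Plk4 at −0.02, and in replicates 2 and 3 at 0.99 and 0.79. In the Gadd45 family, Gadd45b averaged 11.23 at End and 10.32 in Control, a difference of 0.90 ± 0.23 without overlap (limma adjusted p = 1), and Gadd45g differed by 1.02 ± 0.55 with overlap. Both thus had positive differences at End, where that of Gadd45a was negative. Among relatives of Btg2, Btg1 differed at End by 0.30 ± 0.10, Btg4 by −0.05 ± 0.11, Tob1 by 0.16 ± 0.10 and Tob2 by −0.01 ± 0.10. Cdkn1b and Cdkn1c, the other inhibitors of the Cdkn1 family, differed at Post-2hr by −0.23 ± 0.16 and 0.04 ± 0.11. Phlda1 differed at Post-2hr by 0.74 ± 0.30 (adjusted p = 0.836) and Phlda2 by −0.03 ± 0.16. Of the relatives of Bbc3, 6 BH3-only genes (Bmf, Bcl2l11, Bid, Bad, Bik and Hrk), Bmf fell between End and Post-2hr. Against Control, Bmf was at 1.04 ± 0.20 at End (adjusted p = 0.688) and at −0.63 ± 0.20 at Post-2hr (limma adjusted p = 0.679), without overlap in either, so the larger part of its fall was the higher level at End. It averaged 7.88 ± 0.31 at Post-2hr and 9.55 ± 0.08 at End (SD, n = 3 each), a change of −1.67 ± 0.20 or 3.18-fold lower (limma adjusted p = 0.0456; set-apart adjusted p = 0.034). Of 12 fits that each left out 1 array, chosen after the data were seen, 3 kept this call (those without Post-2hr replicate 1, Post-24hr replicate 1 or Post-24hr replicate 3), with changes from −1.82 to −1.51 and limma adjusted p from 0.0274 to 0.291. Bcl2l11, which encodes BIM, differed over the same interval by −0.68 ± 0.28 (adjusted p = 0.753), Bid by 0.14 ± 0.22, Bad by −0.07 ± 0.07, Bik by −0.01 ± 0.11 and Hrk by 0.14 ± 0.11. Pmaip1, a BH3-only gene listed with the other p53 targets, differed from Control by 0.03 at End and 0.18 at Post-2hr.

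Genes of the same pathway from wider lists gave the setting. Of 44 other p53 targets, 37 were measured. Of these 17 had higher and 20 lower means at End, 14 higher and 23 lower at Post-2hr, and 18 higher and 19 lower at Post-24hr, and none passed. Higher means were found in 59.2%, 48.2% and 48.9% of all genes at these harvests. The median difference of the 37 was −0.01, −0.12 and 0.00. At Post-2hr it was 0.01 in replicate 1 and −0.20 in replicates 2 and 3, and −0.06 over all arrays after median centring or quantile normalization. In the set-apart fit 1 of the 37 passed at Post-2hr, as lower, where 0.154% of all rows passed in either direction. It was Sesn1, a sestrin that restrains TOR signalling. Sesn1 was also on a list of FOXO targets. All 11 measured FOXO targets had lower means at Post-2hr, and 7 of the 11 after median centring. Sesn1 averaged 8.59 ± 0.03 at Post-2hr and 9.47 ± 0.30 in Control, a difference of −0.88 ± 0.17 (limma adjusted p = 0.35). The next smallest p-values were those of Plcd4 (−0.74 ± 0.22) and Ptp4a3 (−0.46 ± 0.14), both at Post-2hr. Of 19 measured regulators of p53, 16 had lower means at Post-2hr and none passed (median −0.12), where 48.2% of all genes had higher means. After median centring 13 of the 19 had lower means and after quantile normalization 14, with a median of −0.06 in both. Ppp1r13b, a member of the ASPP family that stimulates p53, differed by −0.40 ± 0.10, and Ppp1r13l, its inhibitory relative, by 0.49 ± 0.13.

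**Figure D3:**
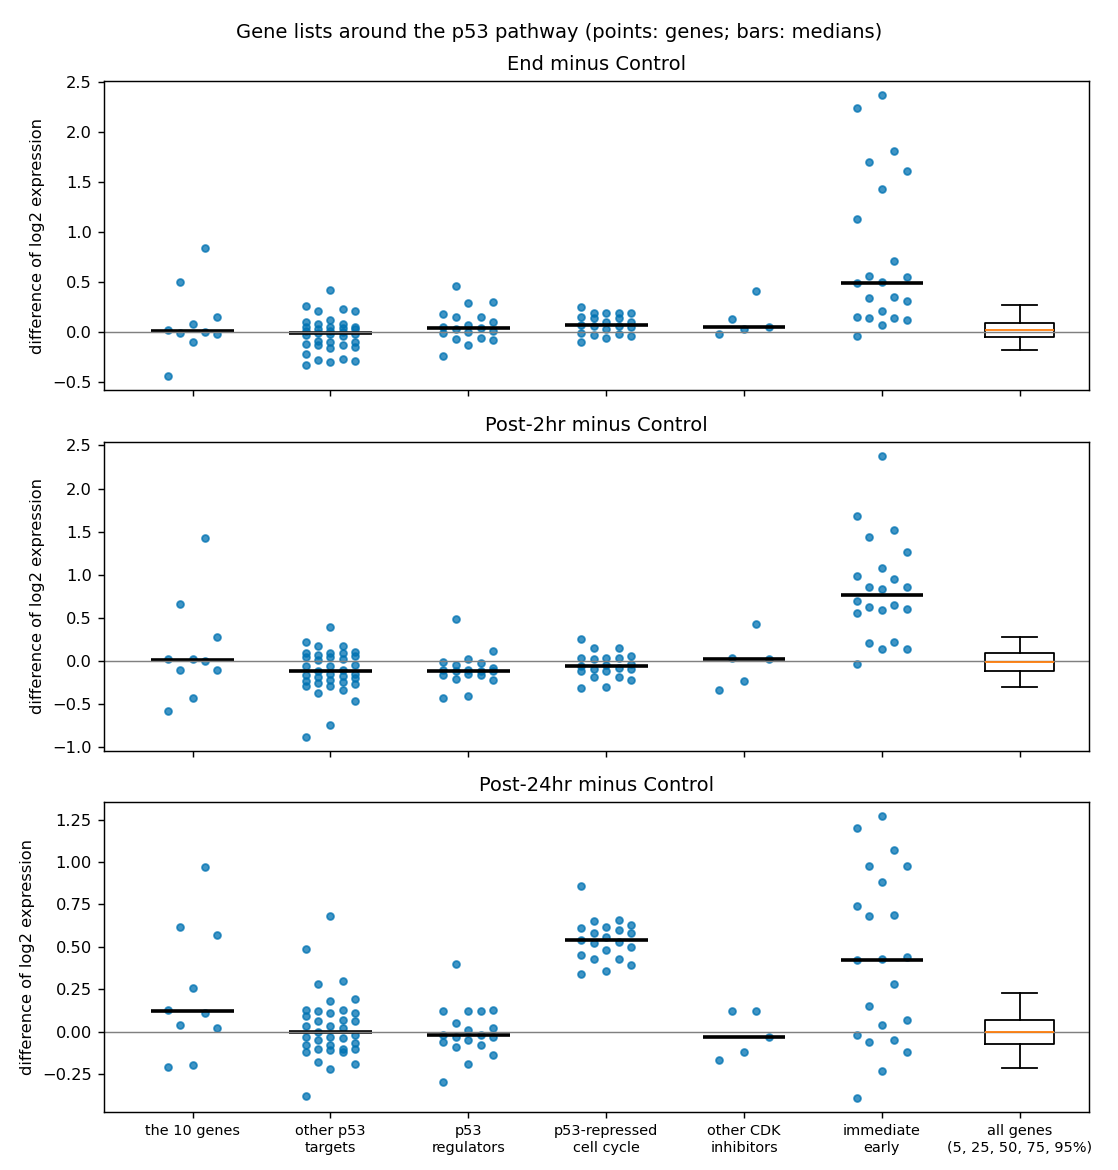
Differences of log2 expression from Control (vertical axes, a scale for each panel) for the genes of 6 lists at the 3 harvests; points are genes, black bars list medians, and the box gives the 5th, 25th, 50th, 75th and 95th percentiles of all 14860 genes. The medians of the 10 genes (0.01, 0.01 and 0.12) and of the other p53 targets (−0.01, −0.12 and 0.00) stay near 0, below those of immediate early factors (0.50, 0.77 and 0.43).

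Transcription factors of the immediate early class, which stimuli induce without new protein synthesis, had higher means over the same harvests as Plk2, Plk3 and Btg2. Of 22 measured, 21 had higher means at End (median 0.50), 21 at Post-2hr (0.77) and 16 at Post-24hr (0.43), and Fosl1 alone passed, at Post-2hr (1.68 ± 0.18, limma adjusted p = 0.0182). Over all genes, 59.2% had higher means at End, 48.2% at Post-2hr and 48.9% at Post-24hr. Of 12 fits that each left out 1 array, 6 kept the call of Fosl1 (those without Control replicate 1, End replicate 2 or 3, Post-2hr replicate 3, or Post-24hr replicate 1 or 2), with changes from 1.54 to 1.83 and limma adjusted p from 0.022 to 0.165. The part of these factors in the values of Plk2, Plk3 and Btg2 was not tested. Genes of cell division that p53 represses had higher means at Post-24hr in all 21 of the measured genes, by a median of 0.54, and none passed. That median was −0.10 in replicate 1 and 0.91 in replicates 2 and 3. Over the 5 other measured inhibitors of cyclin-dependent kinases the median was 0.05 at End, 0.03 at Post-2hr and −0.03 at Post-24hr. Cdkn2b, which encodes p15, had the smallest p among them (0.43 ± 0.20 at Post-2hr, adjusted p = 0.902).

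Several of the 10 genes differed between the replicate 1 arrays and the others, whatever the harvest. This contrast was taken up because these arrays stood apart, so its p-values are a description of these arrays. In a fit that kept the 4 group means, 6 of the 10 passed the test of replicate 1 against replicates 2 and 3, against 30.5% of all rows (limma, Benjamini-Hochberg over all rows). Those higher in replicate 1 were Gadd45a, Trp53inp1, Mdm2, Cdkn1a and Bbc3 (19.5% of all rows were called higher), and Btg2 was lower (11% of all rows). Gadd45a lay between 10.59 and 11.62 in the 4 replicate 1 arrays and between 8.73 and 9.42 in the 8 others, a difference of 2.07 ± 0.09 (SE) or 4.19-fold (adjusted p = 2.55e-06). Mdm2 lay between 11.38 and 11.54 and between 10.61 and 10.99, a difference of 0.67 ± 0.07 (adjusted p = 0.000152). Trp53inp1 differed by 0.69 ± 0.13 (adjusted p = 0.00386) and Cdkn1a by 0.33 ± 0.06 (adjusted p = 0.00297). The 2 sets of arrays did not overlap in these 4 genes. Bbc3 differed by 0.32 ± 0.08 (adjusted p = 0.0163) and did not pass after median centring or quantile normalization, nor without replicate 1 of Control, Post-2hr or Post-24hr. Btg2 differed by −0.42 ± 0.11 (adjusted p = 0.0154) and did not pass without replicate 1 of Control or of Post-2hr. Over the rows at or above the 50th percentile of mean level, where all 10 genes lie, 8 of the 10 passed against 55.6% of those rows.

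The wider lists also differed in this contrast. Of the 37 other p53 targets, 14 were called higher in replicate 1 and 5 lower, with a median of 0.18, against 20.1% and 14.5% of all 14860 genes and a median of −0.03. After median centring these counts were 10 and 5, against 2264 called higher and 2965 called lower of all 14860 genes. The medians were then 0.12 for the list and −0.10 for all genes. Of the 21 cell division genes that p53 represses, 20 were called lower, by a median of −1.44. The calls over all rows were 4557 higher and 2555 lower as deposited, and 3518 higher and 3560 lower after median centring. Cell type markers differed in the same contrast. Of the 6 macrophage and leukocyte markers 2 were called higher in replicate 1 (Cd68 by 2.20 and Cd14 by 0.51) and 1 lower (Csf1r, −1.43). Of the 6 tubular markers 2 were called lower, among them Aqp1 (−1.42). Of the 6 mesangial and fibroblast markers 1 was called higher and 3 lower. Of the 9 podocyte markers 2 were called higher and 3 lower, among them Vegfa (1.26), Podxl (−1.19) and Nes (−1.01), and 0 of the 6 endothelial markers were called. The part of these markers in the differences of the 10 genes was not tested, and the labels give no batch.

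**Figure D4:**
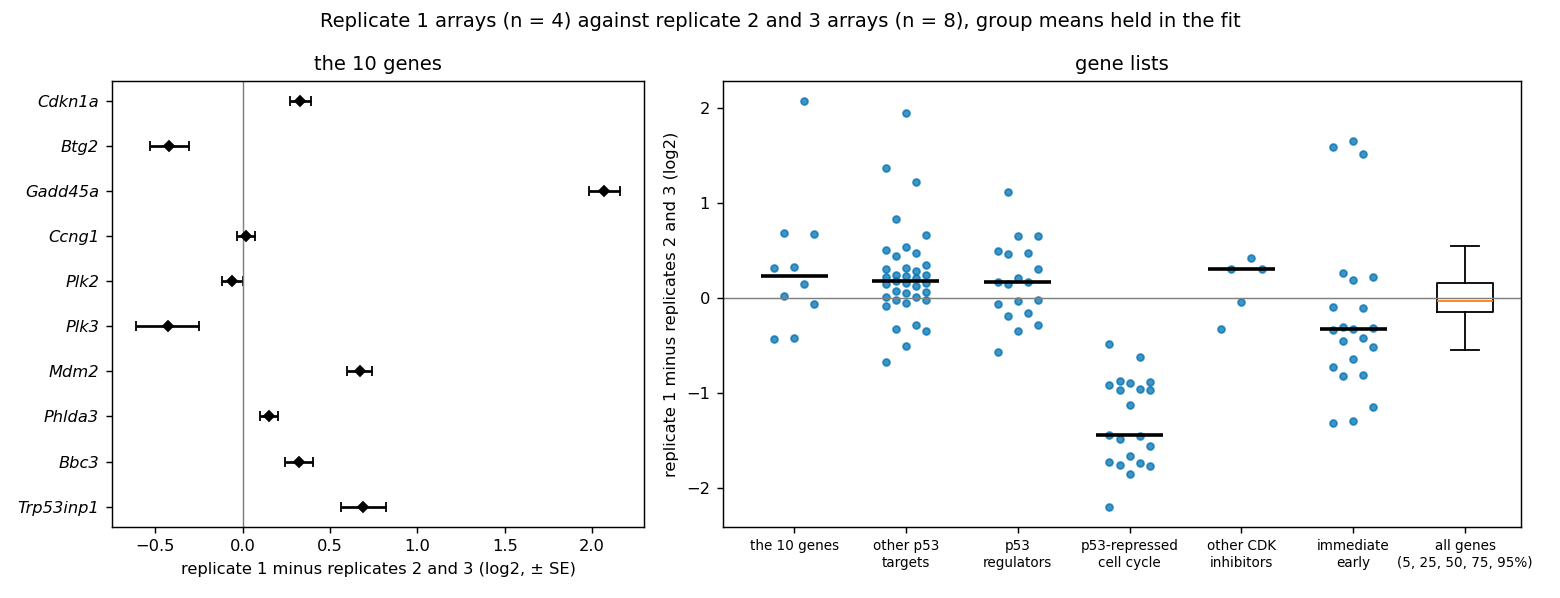
Replicate 1 minus replicates 2 and 3 in log2 expression, with group means held in the fit: at left the 10 genes with their SE, at right the genes of 6 lists (points, with medians as bars) and the 5th, 25th, 50th, 75th and 95th percentiles of all 14860 genes as a box. Gadd45a stands at 2.07, and the p53-repressed cell cycle genes have a median of −1.44.

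The genes most like Plk2 over the 12 arrays, by the root mean square difference of values centred on each replicate number's mean, were Rnd1 (0.095), Mtmr10 (0.114), Msmo1 (0.140), Errfi1 (0.140) and Spred2 (0.144). The median over 14449 candidate genes was 0.324, and a gene with no change around those means would be at 0.294. Errfi1 encodes an inhibitor of the EGF receptor and Spred2 a brake on ERK signalling. At Post-2hr their differences from Control were 0.57 for Rnd1, 0.53 for Mtmr10, 0.40 for Msmo1, 0.61 for Errfi1 and 0.74 for Spred2, beside 0.66 for Plk2. At Post-24hr they were 0.65, 0.39, 0.35, 0.42 and 0.73 in the same order, beside 0.62 for Plk2. These genes were picked for their likeness to Plk2 in the same arrays, so similar differences follow from the choice.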

How the data were processed

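Per the labels' protocols, the platform was the Affymetrix Mouse Exon 1.0 ST array, and the probes of a gene's exons were combined into a gene-level value. The deposited table is in log2 units (23332 rows, 0 missing, 1.63 to 14.23). RMA and Partek are named in the submitters' processing notes, with no settings. No genome build is stated in the sources. Such normalization evens out array distributions and hides shifts in total RNA, and the number of arrays limits the precision. The platform annotation gave 14996 rows 1 symbol, 1019 several and 7317 none here.

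A model with 4 group means was fitted to every row over the 12 arrays with limma 3.58.1 in R 4.3.3 (lmFit, eBayes, 8 residual degrees of freedom and 2.16 from the prior). P-values were adjusted over all rows by Benjamini-Hochberg, with a threshold of 0.05. Alternatives changed the replicate terms, normalization, filters, variance model, array weights and samples, and the code was tested on simulated data. The 10 genes and all lists were chosen with earlier results of these data known. All 10 genes are named, and up to 3 genes of each other list, those with the smallest p against Control. Relatives are named by whole families as listed, where measured (Btg3 was not), and the genes most like Plk2 were taken after its F test. Of the 10, 9 matched 12 RefSeq promoter windows.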

Additional observations from a re-analysis of the deposited data

How the results depend on the processing

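None of the 10 genes passed at End in any of the alternative fits run. At Post-2hr the count of genes past the threshold, 0 in the reported fit, was 2 with a replicate block of 3 levels (Plk2, limma adjusted p = 0.0389, and Plk3, limma adjusted p = 0.042; 0.163% of all rows), 1 with replicate 1 set apart (0.154%), 1 on rows at or above the 50th percentile (0.0857%) and 1 on rows with 1 symbol only (0.0533%), Plk2 each time. It was 3 with array weights (Plk2, Plk3 and Trp53inp1), which called 16.6% of all rows. With array weights 1 gene also passed at Post-24hr (0.0129% of all rows) and 1 between End and Post-2hr (1.62%), Plk2 both times, and 3 in the test of any difference (7.34%). Leaving out 1 array gave 0 calls at every harvest. In the fits with replicate 1 set apart and 1 further change, chosen after the data were seen, the count at Post-2hr was 2 after quantile normalization (Plk2 and Plk3; 0.18% of all rows) and 1 after median centring (0.141%), and from 0 to 1 when an array was left out. Between End and Post-2hr it was 1 after median centring (0.111% of all rows). It was from 0 to 1 there when an array was left out (Trp53inp1, without Post-2hr replicate 1). In the test of any difference it was 1 after median centring (0.0729%). The shares of all rows in the set-apart fits that left out an array are not given here. The count for replicate 1 against the other arrays, 6 as reported, ran from 4 (21% of all rows, without Control replicate 1, and 22.8%, without Post-2hr replicate 1) to 8 (55.6%, on rows at or above the 50th percentile) over 19 alternatives. The changes of Plk2, Plk3 and Btg2 at the 3 harvests kept their sign in all 25 alternatives. For many of these the sign was fixed. Replicate terms, row filters, variance models and the loss of an array from another group return the same difference. The cause of the differing calls was not tested. The check used did not take the replicate numbers as pairing the samples, because of its lowest same-numbered pair. Deviations of same-numbered arrays from their group means correlated from 0.029 to 0.723 over 18 pairs. Still, 11 of 12 arrays had their best match in another group under their own number, and 10 of 12 their highest mean correlation. Pairing is thus not excluded, and the replicate block of 3 levels is the fit that allows for it. At Post-2hr the rows with an unadjusted p under 0.05 were 507 higher and 810 lower as deposited, and 707 higher and 503 lower after median centring.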
